A study of Mus musculus with 24 samples.

Results

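Major histocompatibility complex (MHC) class II genes encode the machinery with which professional antigen-presenting cells display peptides to CD4+ T cells. The genes were the 8 rows of the deposited table named Cd74, H2-Aa, H2-Ab1, H2-Eb1, H2-DMa, H2-DMb1, Ciita and Ctss, out of 14293 rows, and all 8 had 1 row each. They were chosen by name and role, and with earlier results of these data known. Their values were followed in 24 livers of mice with NASH (nonalcoholic steatohepatitis), in which a fat-laden liver becomes inflamed and may scar. Of these, 8 came from mice given vutiglabridin, 8 from mice given semaglutide and 8 from mice given vehicle. Vutiglabridin is a synthetic relative of the licorice flavonoid glabridin, presented in the series title as a paraoxonase-2 agonist, and semaglutide activates the GLP-1 receptor, a target of incretin drugs for diabetes and obesity. The labels give no strain, sex, age, diet, dose or duration for any group, nor which animal gave which liver, so each p-value rests on library-to-library spread, part of which may be technical. No healthy liver was analysed here.

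Class II molecules are pairs of an alpha and a beta chain that are assembled in the endoplasmic reticulum around the invariant chain. In endosomes, proteases trim the invariant chain to a fragment that fills the groove, and the DM molecule exchanges that fragment for an antigenic peptide. Dendritic cells, B cells and macrophages use the system, and in the liver it is known mainly from these cells rather than from hepatocytes. H2-Aa and H2-Ab1 encode the chains of the mouse I-A molecule, and H2-Eb1 encodes the beta chain of I-E. Cd74 encodes the invariant chain, H2-DMa and H2-DMb1 the chains of DM, and Ctss cathepsin S, the protease of the late trimming steps. Ciita encodes the class II transactivator, which binds no DNA itself and is recruited by factors that sit on the X and Y boxes of class II promoters.

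Promoters are shown because X and Y boxes are the known elements of class II promoters. Whether these elements bear on the changes reported below was not tested. RefSeq promoter windows (GRCm38.p6, 250 bases before to 50 after the annotated start) matched 5 of the 8 genes, and 4 are printed 5′ to 3′ on the strand of the gene. Capitals mark the motifs searched on both strands, which were ATTGG (the core of the Y box), AACNGATG (part of the X1 box), TGACGTCA (a palindromic cAMP response element) and GAAA followed by any 2 bases and GAAA again (an interferon-stimulated response element). The windows are chr17:34287774-34288073 (minus strand) for H2-Aa, chr17:34305617-34305916 (plus) for H2-Eb1, chr17:34152941-34153240 (plus) for H2-DMb1 and chr3:95526536-95526835 (plus) for Ctss.
H2-Aa: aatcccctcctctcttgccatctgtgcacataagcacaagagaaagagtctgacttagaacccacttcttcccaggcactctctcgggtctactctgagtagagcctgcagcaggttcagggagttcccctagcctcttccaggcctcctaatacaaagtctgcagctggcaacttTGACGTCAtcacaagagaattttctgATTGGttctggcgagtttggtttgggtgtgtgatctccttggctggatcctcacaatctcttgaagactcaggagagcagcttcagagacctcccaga
H2-Eb1: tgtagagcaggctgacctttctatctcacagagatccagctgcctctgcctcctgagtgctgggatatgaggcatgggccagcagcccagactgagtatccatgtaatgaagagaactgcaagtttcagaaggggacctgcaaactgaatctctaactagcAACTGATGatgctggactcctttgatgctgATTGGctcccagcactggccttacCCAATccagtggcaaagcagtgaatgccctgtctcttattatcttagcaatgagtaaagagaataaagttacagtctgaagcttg
H2-DMb1: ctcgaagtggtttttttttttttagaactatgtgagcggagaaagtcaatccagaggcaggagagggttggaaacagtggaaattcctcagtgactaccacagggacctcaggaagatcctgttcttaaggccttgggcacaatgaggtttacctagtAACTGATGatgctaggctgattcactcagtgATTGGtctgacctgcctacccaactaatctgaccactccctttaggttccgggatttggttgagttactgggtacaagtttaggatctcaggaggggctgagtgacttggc
Ctss: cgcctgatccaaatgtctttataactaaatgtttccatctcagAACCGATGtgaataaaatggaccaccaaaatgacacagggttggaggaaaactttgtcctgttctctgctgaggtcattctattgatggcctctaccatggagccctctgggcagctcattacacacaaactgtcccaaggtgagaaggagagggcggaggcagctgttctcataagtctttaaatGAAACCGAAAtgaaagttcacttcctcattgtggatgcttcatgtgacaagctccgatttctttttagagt

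The Y box core began 48 bases before the start in H2-Aa, 59 bases before it in H2-Eb1 and 61 bases before it in H2-DMb1, and H2-Eb1 held a further copy on the opposite strand (CCAAT) that began 35 bases before the start. H2-Eb1 and H2-DMb1 also held the same 8 letters of the X1 part, 89 and 92 bases before the start. Of all 32851 RefSeq promoter windows of that length, 37.4% held the Y box core, 2.32% the X1 part and 1.79% the cAMP response element found in H2-Aa. The Ctss window had no Y box core, and held the X1 part 207 bases and the interferon-stimulated response element 21 bases before the start. That element occurred in 3.44% of windows. The fifth gene, H2-DMa, has 2 windows in RefSeq, which are not printed because they held little of this arrangement. One held 0 of the motifs and the other only a Y box core, 198 bases before the start. These are letter matches and not measured binding.

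Values are FPKM, fragments scaled to transcript length and to library depth, as deposited. The low values lie on the steps that single fragments make, which implied depths (in units of 1000000 fragments) of 5.97 to 15.24 for vutiglabridin, 9.32 to 12.4 for semaglutide and 11.97 to 19.82 for vehicle libraries. Vutiglabridin replicate 7 was the shallowest. The semaglutide columns alone carry a trailing space in every cell, so a difference in how that group was processed cannot be told apart from the drug. Hepatocyte markers (albumin, apolipoprotein A1 and 4 others) summed to 32147 to 46536 FPKM in vutiglabridin, 32166 to 43967 in semaglutide and 29145 to 36703 in vehicle livers, so the liver label stood. All 8 class II genes were above 0 in every library and passed the filter of at least 0.5 FPKM in at least 8 libraries, as did 11562 genes in all.

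All 8 class II genes were lower in vutiglabridin than in vehicle livers, by 1.71 to 2.2 times in mean FPKM. Semaglutide livers lay between the other groups for every gene, and 5 of the 8 were lower than in vehicle livers. The invariant chain gene Cd74 showed the widest gap between the drugs, since it was 2.16 times lower under vutiglabridin and did not pass the test under semaglutide. Fewer cells of a type and less RNA per cell cannot be told apart in whole liver, here and for every later value.

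In FPKM, which is per length, Cd74 was the most abundant of the 8 genes in each group and Ciita the least. Mean FPKM ran in the order Cd74, Ctss, H2-Eb1, H2-Ab1, H2-Aa, H2-DMb1, H2-DMa and Ciita in vutiglabridin, semaglutide and vehicle livers alike. The ranges of 1 SD around the means overlapped between the neighbours Ctss and H2-Eb1, H2-Eb1 and H2-Ab1, and H2-Ab1 and H2-Aa in each group, and between Cd74 and Ctss in vutiglabridin livers. Those of the other neighbours did not.

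**Figure D1:**
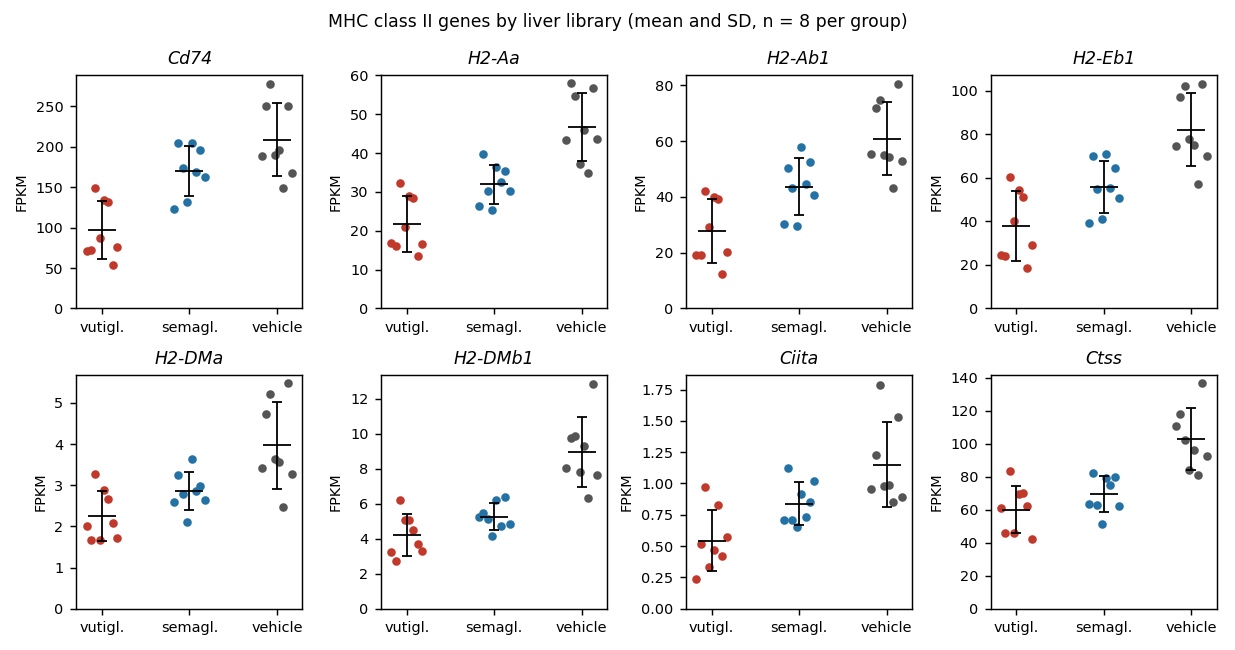
FPKM (y axis, from 0) of the 8 class II genes in each library of the vutiglabridin, semaglutide and vehicle groups, with the mean and SD of 8 libraries as bar and whiskers. For Cd74, H2-Aa, H2-Ab1 and H2-DMb1 every vutiglabridin point lies below every vehicle point, and vehicle points reach 277.92 FPKM for Cd74.

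Among the chain genes, H2-Aa (GRCm38 chr17:34282744-34287823) ranged from 13.39 to 32.38 FPKM in vutiglabridin livers (median 18.9), from 25.29 to 39.74 in semaglutide livers (median 31.3) and from 34.87 to 57.99 in vehicle livers (median 44.8). H2-Ab1 (chr17:34257689-34269419) ranged from 12.44 to 41.99 FPKM under vutiglabridin (median 24.8), from 29.68 to 58.05 under semaglutide (median 43.9) and from 43.04 to 80.49 under vehicle (median 55.2). H2-Eb1 (chr17:34305867-34316674) ranged from 18.67 to 60.33 FPKM under vutiglabridin (median 34.7), from 39.46 to 70.75 under semaglutide (median 55.0) and from 57.11 to 103.17 under vehicle (median 76.5). The vutiglabridin and vehicle ranges did not meet for H2-Aa and H2-Ab1, and for H2-Eb1 they met only because vutiglabridin replicate 3, at 60.33 FPKM, lay above vehicle replicate 6. H2-Aa fell by 1.12 on the log2(FPKM + 1) scale under vutiglabridin (SE 0.15, adjusted p = 4.13e-05), H2-Ab1 by 1.19 (SE 0.20, adjusted p = 0.000358) and H2-Eb1 by 1.18 (SE 0.20, adjusted p = 0.000325), in limma fits with Benjamini-Hochberg adjustment over the genes tested.

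Cd74 (chr18:60803848-60812652) ranged from 54.1 to 148.58 FPKM in vutiglabridin livers (median 81.9), from 123.04 to 204.33 in semaglutide livers (median 171.2) and from 149.03 to 277.92 in vehicle livers (median 193.1). The highest vutiglabridin library thus lay just under the lowest vehicle library. The mean was 96.9 ± 35.5 FPKM under vutiglabridin, 170.4 ± 31.0 under semaglutide and 208.8 ± 45.5 under vehicle (SD, n = 8 each). Cd74 fell by 1.15 on the log2 scale under vutiglabridin against vehicle (95% interval -1.52 to -0.79, limma adjusted p = 0.000167). Under semaglutide its difference from vehicle was -0.28 (95% interval -0.65 to 0.08, limma adjusted p = 0.249). All 8 semaglutide libraries were below the vehicle mean, but replicates 2, 5 and 7 (203.97, 204.33 and 195.33 FPKM) were above the vehicle median.

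The DM genes were less abundant per length than the chains. H2-DMa (chr17:34119541-34139101) ranged from 1.67 to 3.27 FPKM in vutiglabridin livers (median 2.04), from 2.11 to 3.65 in semaglutide livers (median 2.82) and from 2.48 to 5.49 in vehicle livers (median 3.59). H2-DMb1 (chr17:34153072-34160230) ranged from 2.72 to 6.21 FPKM under vutiglabridin (median 4.09), from 4.14 to 6.41 under semaglutide (median 5.21) and from 6.33 to 12.86 under vehicle (median 8.67). The vutiglabridin and vehicle groups did not overlap for H2-DMb1, and 7 of 8 semaglutide libraries were also below every vehicle library. For H2-DMa they overlapped, with 5 of 8 vutiglabridin libraries below every vehicle library. H2-DMb1 fell by 0.94 on the log2 scale under vutiglabridin and by 0.65 under semaglutide, each against vehicle (limma adjusted p = 3.57e-05 and 0.000385). H2-DMa fell by 0.61 and 0.35 in the same order (limma adjusted p = 0.00117 and 0.0325). H2-DMb1 has a near-identical neighbour, H2-DMb2, and H2-DMa overlaps Brd2 on the opposite strand. The sources used here do not say whether counting used strand, so both values are uncertain as those of single genes. The same holds for H2-Eb1, which has the paralog H2-Eb2 and an overlapping gene on the opposite strand, and for Ciita, which overlaps Dexi.

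Ctss (chr3:95526786-95556403) ranged from 42.3 to 83.37 FPKM under vutiglabridin (median 61.5), from 51.54 to 82.49 under semaglutide (median 69.1) and from 81.15 to 136.93 under vehicle (median 99.2). In 7 of 8 libraries of each drug the value was below every vehicle library. Ctss fell by 0.78 under vutiglabridin and by 0.55 under semaglutide on the log2 scale (limma adjusted p = 0.000325 and 0.00272). Ciita (chr16:10480059-10528418) ranged from 0.24 to 0.97 FPKM under vutiglabridin (median 0.495), from 0.65 to 1.12 under semaglutide (median 0.79) and from 0.85 to 1.79 under vehicle (median 0.985). Of the vutiglabridin libraries 7 lay below every vehicle library, and of the semaglutide libraries 4. At the gene's union exon length, the lowest value, in vutiglabridin replicate 1, corresponds to about 27.6 fragments, and that of the shallow replicate 7 to about 23.9. Ciita fell by 0.48 on the log2(FPKM + 1) scale under vutiglabridin (limma adjusted p = 0.00115), which understates its 2.12 times lower mean, and with a pseudocount of 0.1 the fall was 1.01.

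Against vehicle, 8 of 8 class II genes were thus called lower in vutiglabridin livers, where 8.78% of the 11562 genes tested were lower and 6.53% higher. With each library rescaled to the same total (TPM), 2729 genes were lower and 233 higher, in place of 1015 and 755, the median of all genes was -0.11, and Cd74 differed by -1.31. Groups without overlap were found for 4 of the 8 genes, against 0.969% of all genes with every vutiglabridin library below every vehicle library. The median change of the 8 was -1.03 on the log2 scale, beside 0.01 over all genes tested. In each of 16 fits that left out 1 library all 8 were called, including the fits without vutiglabridin replicate 3 or 7 and without vehicle replicate 3.

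Against vehicle, semaglutide livers had 5 of the 8 genes lower and 3 that did not pass, where 12.7% of genes tested were lower and 14.3% higher (1474 and 1650 genes, or 2169 and 1220 with libraries rescaled to the same total). The 5 were H2-Aa, H2-Eb1, H2-DMa, H2-DMb1 and Ctss, and the median change of the 8 was -0.50, beside -0.01 over all genes. H2-Aa fell by 0.53 (limma adjusted p = 0.0116) and H2-Eb1 by 0.55 (limma adjusted p = 0.0402). H2-Ab1 differed by -0.48 (limma adjusted p = 0.0821) and Ciita by -0.22 (limma adjusted p = 0.0860), and neither passed the threshold. For none of the 8 did the groups separate without overlap, while 1.74% of all genes had every semaglutide library below every vehicle library. The calls of H2-Aa, H2-DMb1 and Ctss held in all 16 fits that left out 1 library. That of H2-Eb1 was lost without vehicle replicate 2, 3, 4 or 7 or semaglutide replicate 1, 3, 4, 6 or 8 (limma adjusted p 0.0519 to 0.0838). That of H2-DMa was lost without vehicle replicate 2, 3 or 7 or semaglutide replicate 1, 3, 4 or 8 (0.05 to 0.0763), so these 7 omissions each left 3 of the 8 genes called. Both comparisons use the same vehicle libraries.

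The drugs were also compared directly. Vutiglabridin livers had 5 of the 8 genes lower than semaglutide livers, where 12.6% of genes tested were lower and 11.9% higher (1454 and 1372 genes, or 2267 and 589 with libraries rescaled). Cd74 fell by 0.87 on the log2 scale relative to semaglutide (SE 0.18, limma adjusted p = 0.000862), H2-Ab1 by 0.71 (SE 0.20, adjusted p = 0.0118), H2-Eb1 by 0.63 (SE 0.20, adjusted p = 0.0219) and H2-Aa by 0.59 (SE 0.15, adjusted p = 0.00614). The fifth was Ciita, at -0.26 (limma adjusted p = 0.0425). The differences of H2-DMa (-0.26, 95% interval -0.51 to -0.02), H2-DMb1 (-0.29, -0.54 to -0.03) and Ctss (-0.23, -0.50 to 0.04) did not pass, with limma adjusted p of 0.111, 0.0952 and 0.211. The drug groups overlapped for all 8 genes, where 2.27% of all genes had every vutiglabridin library below every semaglutide library. The Ciita call was lost without vutiglabridin replicate 1, 2, 4, 5 or 7 or semaglutide replicate 2, 5, 7 or 8 (limma adjusted p 0.0585 to 0.0929). Without vutiglabridin replicate 3, H2-DMa and H2-DMb1 passed (limma adjusted p = 0.0479 and 0.0316).

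**Figure D2:**
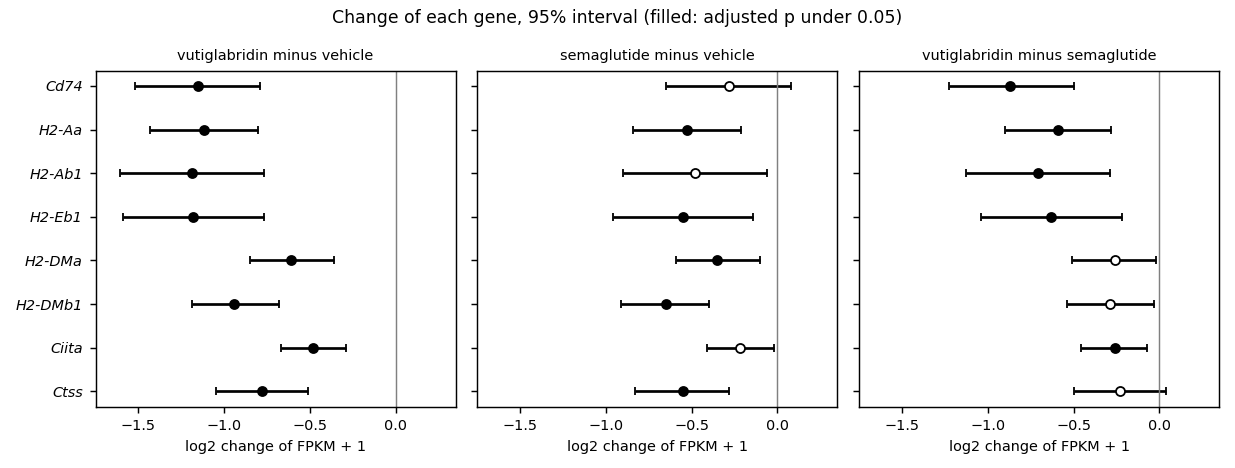
Change of each class II gene on the log2(FPKM + 1) scale (x axis) with its 95% interval from limma, for vutiglabridin minus vehicle, semaglutide minus vehicle and vutiglabridin minus semaglutide. Filled points have an adjusted p under 0.05, and they number 8, 5 and 5 of 8 from left to right.

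Within a library the chain genes and Cd74 moved almost as one. After each group's mean was removed, the correlation over the 24 libraries was 0.987 between H2-Ab1 and H2-Eb1 and 0.979 between Cd74 and H2-Eb1, as descriptions of libraries that share depth and tissue composition. The lowest of the 28 pairs was Ciita with Ctss, at 0.543. Vutiglabridin replicate 3 was the highest of its group for all 8 genes, semaglutide replicate 4 the lowest of its group for 6, and vehicle replicate 6 the lowest of its group for all 8. The coefficient of variation of H2-Ab1 was 41.4% in vutiglabridin, 23.3% in semaglutide and 21.3% in vehicle livers, and for all 8 genes it was highest in the vutiglabridin group. That difference in spread was not tested.

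**Figure D3:**
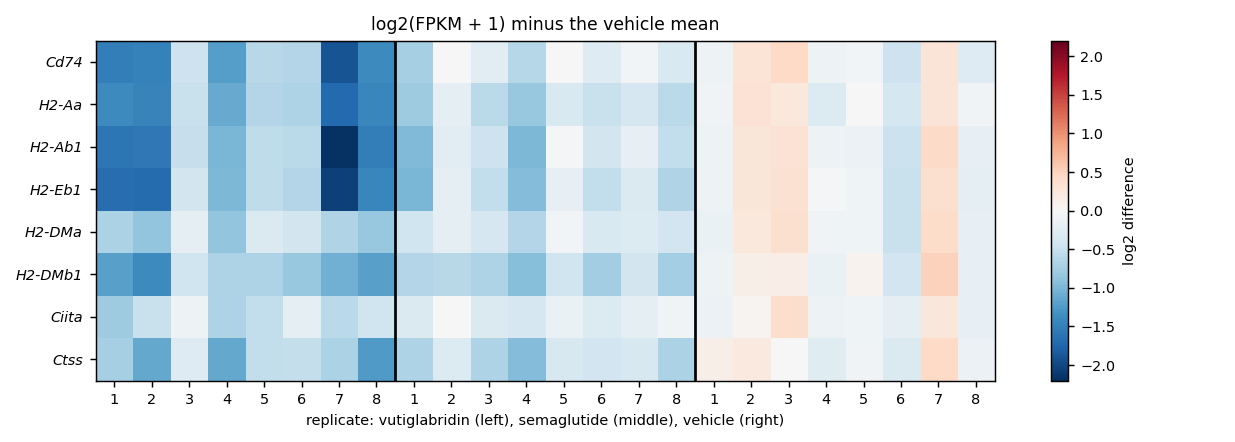
Colour shows log2(FPKM + 1) of each class II gene (rows) in each library (columns, numbered by replicate) minus the vehicle mean of that gene, with vutiglabridin left, semaglutide in the middle and vehicle right. Vutiglabridin replicates 1, 2, 7 and 8 form the darkest columns for Cd74 and the chain genes, and replicate 3 is the palest of that group.

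Ratios within a library compared how far pairs of these genes differed between groups. Cd74 over Ctss averaged 1.62 ± 0.391 in vutiglabridin, 2.46 ± 0.256 in semaglutide and 2.04 ± 0.332 in vehicle livers (ratio of FPKM, SD, n = 8 each). Of Cd74 to Ctss, the log2 ratio was 0.37 lower under vutiglabridin than under vehicle, 0.27 higher under semaglutide than under vehicle, and 0.64 lower under vutiglabridin than under semaglutide. The exact permutation tests, 2-sided and adjusted over 9 ratio tests, gave p = 0.0281, 0.0218 and 0.000699. The first of these did not pass without vehicle replicate 2, 3, 4 or 5 or vutiglabridin replicate 7 (exact permutation p, adjusted, 0.0526 to 0.0727). The difference without vutiglabridin replicate 7, whose Cd74 over Ctss was the lowest of all at 0.87, was -0.25.

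Cd74 relative to the chain genes stood highest under semaglutide. Cd74 over H2-Eb1 ran from 2.89 to 3.22 in semaglutide livers, without overlap with the 2.40 to 2.72 of vehicle livers, and from 2.18 to 2.99 in vutiglabridin livers. This pair was picked after its values were seen and was not tested. H2-Aa over H2-DMa averaged 9.63 ± 1.73 in vutiglabridin, 11.2 ± 0.852 in semaglutide and 12.1 ± 1.49 in vehicle livers (SD, n = 8 each). Its log2 ratio was 0.34 lower under vutiglabridin than under vehicle when no pseudocount was added (exact permutation p = 0.0294, adjusted over 9 tests). With the pseudocount of 1 the difference was -0.51 (exact permutation p = 0.000699, adjusted), since that constant weighs more on the low H2-DMa.

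Ptprc (CD45), carried by nearly all leukocytes, averaged 0.875 ± 0.253 FPKM in vutiglabridin, 1.41 ± 0.192 in semaglutide and 1.53 ± 0.361 in vehicle livers (SD, n = 8 each). Cd74 over Ptprc averaged 110 ± 19.1 in vutiglabridin, 123 ± 30.4 in semaglutide and 138 ± 23.2 in vehicle livers. Without a pseudocount the log2 ratio was 0.34 lower under vutiglabridin than under vehicle (exact permutation p = 0.0346, adjusted over 9 tests). It was 0.19 lower under semaglutide than under vehicle and 0.15 lower under vutiglabridin than under semaglutide (exact permutation p = 0.245 and 0.339, adjusted). With the pseudocount of 1 these differences were -0.72, -0.22 and -0.50 (exact permutation p = 0.00186, 0.108 and 0.0156, adjusted), so the last one depended on the constant. Ptprc itself was 0.37 lower under vutiglabridin than under semaglutide (limma adjusted p = 0.00239). With the trend of each library with GC content and exon length removed, this became -0.11 (limma adjusted p = 0.422). The ratios were not computed with those trends removed.

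**Figure D4:**
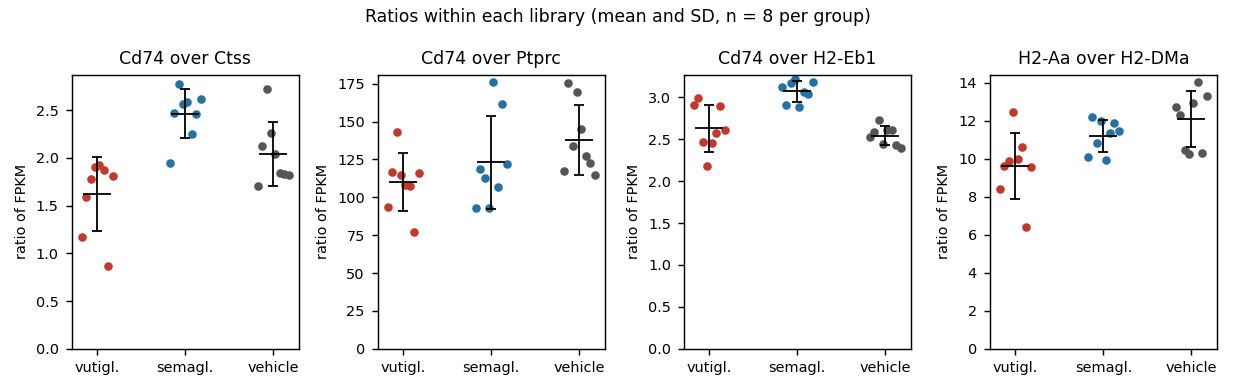
Ratios of FPKM within each library (y axes, from 0) for Cd74 over Ctss, Cd74 over Ptprc, Cd74 over H2-Eb1 and H2-Aa over H2-DMa, with the mean and SD of 8 libraries per group. Semaglutide points of Cd74 over H2-Eb1 lie above all vehicle points, and the lowest Cd74 over Ctss, 0.87, belongs to vutiglabridin replicate 7.

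The remaining class II genes were scarce. H2-DMb2, the second DM beta gene, averaged 0.486 ± 0.375 FPKM in vutiglabridin, 0.739 ± 0.367 in semaglutide and 1.12 ± 1.0 in vehicle livers, and was listed at 0 in vutiglabridin replicate 7. H2-Oa and H2-Ob encode the chains of DO, an inhibitor of DM known from B cells, and H2-Oa was listed at 0 in vutiglabridin replicates 1 and 7. Neither H2-DMb2 (-0.44) nor H2-Oa (-0.33) passed under vutiglabridin (limma adjusted p = 0.122 and 0.0728), and H2-Ob and H2-Eb2 missed the expression filter. H2-Oa passed with libraries rescaled to the same total (-0.37, limma adjusted p = 0.0283) and without vehicle replicate 1 or vutiglabridin replicate 4 or 5 (as low as 0.0272).

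The factors that recruit Ciita to class II promoters gave no call under vutiglabridin. Of Rfx5, Rfxank and Rfxap (the X-box complex RFX), Nfya, Nfyb and Nfyc (the Y-box complex NF-Y) and Creb1, 0 of 7 passed in limma, at -0.03 to 0.16 on the log2 scale, and 0 had an unadjusted p under 0.05. Under semaglutide Nfyb rose by 0.28 and Creb1 by 0.27 (limma adjusted p = 0.0127 and 0.00113). With the trend of each library with GC content and exon length removed, these became 0.19 and 0.02 (limma adjusted p = 0.0602 and 0.751). Between the drugs, Rfxank was 0.25 higher and Creb1 0.30 lower under vutiglabridin (limma adjusted p = 0.0339 and 0.00046), and with the same trends removed these became 0.20 and -0.08 (limma adjusted p = 0.0607 and 0.245). The Rfxank call was also lost with libraries rescaled to the same total (0.17, limma adjusted p = 0.113), with the drug groups fitted alone (0.0693), and without vutiglabridin replicate 2, 4 or 7 or semaglutide replicate 3, 7 or 8 (up to 0.0785).

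Interferon-gamma is the best known inducer of Ciita. Of the 7 tested genes of its signalling list, 3 fell under vutiglabridin, with a list median of -0.09. The receptor chains Ifngr1 and Ifngr2 fell by 0.28 and 0.35 (limma adjusted p = 0.0214 and 0.00295). The Ifngr1 call was lost without vehicle replicate 7 or vutiglabridin replicate 2 (limma adjusted p up to 0.0528). Under semaglutide the kinases Jak1 and Jak2 rose by 0.31 and 0.36 (limma adjusted p = 0.000202 and 0.00019). Jak2 averaged 4.38 ± 0.502 FPKM in vutiglabridin, 6.35 ± 0.588 in semaglutide and 4.71 ± 0.488 in vehicle livers. Irf1, an interferon-induced factor that acts on a Ciita promoter, had a median of 12.6 FPKM in vutiglabridin, 13.6 in semaglutide and 12.6 in vehicle livers and did not pass.

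Of 3 genes that set class II turnover, 2 fell under vutiglabridin. March1, the ubiquitin ligase that sends class II molecules to lysosomes, fell by 0.22, and Cd83, which counters it on activated cells, fell by 0.64 (limma adjusted p = 0.0160 and 0.0032). Quantile normalization ended the March1 call (-0.11, limma adjusted p = 0.247). Under semaglutide 0 of the 3 passed in limma, where Cd83 had an unadjusted p of 0.03, and March1 passed with the GC content and exon length trends removed (-0.23, limma adjusted p = 0.0148). March8, a related ligase, passed in neither comparison with vehicle in the main fit. With libraries rescaled to the same total it was called lower under vutiglabridin (-0.18, limma adjusted p = 0.0431).

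Endosomal antigen processing genes were called in both directions, with 3 of 11 tested genes lower and 2 higher under vutiglabridin and 4 lower and 2 higher under semaglutide. The 4 became 2 without vehicle replicate 2 or 7 or semaglutide replicate 1, 3, 4 or 8. For this and every other list, the shares of all genes tested were 8.78% lower and 6.53% higher under vutiglabridin. Under semaglutide they were 12.7% and 14.3%. Lgmn fell by 0.41 under vutiglabridin and by 0.44 under semaglutide (limma adjusted p = 0.0269 and 0.00945). Its vutiglabridin call was lost in 4 of 16 fits that left out 1 library. Cd63, a tetraspanin of the class II compartment, fell by 0.99 under vutiglabridin and by 0.61 under semaglutide (limma adjusted p = 0.00052 and 0.0122). Ctsk, a cathepsin best known from osteoclasts, fell by 0.83 under vutiglabridin (limma adjusted p = 0.00344) and differed by -0.38 under semaglutide (0.132). Sppl2a, the protease that clears the last membrane stub of the invariant chain, averaged 21.9 ± 3.26 FPKM in vutiglabridin, 29.6 ± 2.03 in semaglutide and 21.1 ± 2.07 in vehicle livers. It rose by 0.47 under semaglutide (limma adjusted p = 4.19e-05) and was 0.43 lower under vutiglabridin than under semaglutide (limma adjusted p = 0.000166). Ctsh rose by 0.14 under vutiglabridin, a call lost in 11 of 16 fits that left out 1 library, and rescaling to equal totals left 5 lower and 0 higher of the 11. With totals equalised, the shares of all genes under vutiglabridin were 23.6% lower and 2.02% higher, for this and every other list.

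Class I presentation is the route by which most cells show peptides to CD8+ T cells. Under vutiglabridin 3 of 8 tested genes fell, with a median of -0.19, and Tap1, a peptide transporter subunit, fell by 0.42 (limma adjusted p = 0.00567). H2-D1, a class I heavy chain, fell by 0.32 (limma adjusted p = 0.00693). With totals equalised 7 of the 8 were called lower. The third call, Tap2 (-0.29, limma adjusted p = 0.0384), was lost in 9 of 16 fits that left out 1 library. Under semaglutide Tapbp and Erap1, which load and trim class I peptides, rose by 0.26 and 0.38 (limma adjusted p = 0.0122 and 0.000486). H2-D1 fell by 0.21 there (limma adjusted p = 0.0495), a call lost in 11 of 16 fits that left out 1 library.

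Costimulatory and coinhibitory ligand genes and T cell genes were near the filter. Under vutiglabridin Cd274, the coinhibitory ligand PD-L1, fell by 0.45 and the costimulatory Cd86 by 0.36 (limma adjusted p = 0.00193 and 0.0292), 2 of 4 tested. The Cd86 call was lost without vehicle replicate 3 or 7 or vutiglabridin replicate 2, 7 or 8 (limma adjusted p up to 0.0712). Under semaglutide Icosl alone of the 4 fell, by 0.24 (limma adjusted p = 0.0416), a call lost in 8 of 16 such fits. Of the CD4 T cell list, 2 of 7 genes were testable. Lag3, a receptor for class II on T cells, fell by 0.32 under vutiglabridin (limma adjusted p = 0.0291), a call lost without vehicle replicate 8 or vutiglabridin replicate 1, 7 or 8 (up to 0.0692). Cd3g, the other, did not pass against vehicle under vutiglabridin (-0.21, limma adjusted p = 0.154) or semaglutide (0.09, 0.537). It was 0.29 lower under vutiglabridin than under semaglutide (limma adjusted p = 0.0262), a call lost in 3 of 16 fits that left out 1 library. That call was also lost with quantile normalization (-0.21, limma adjusted p = 0.129) and with the GC content and exon length trends removed (-0.22, 0.153).

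**Figure D5:**
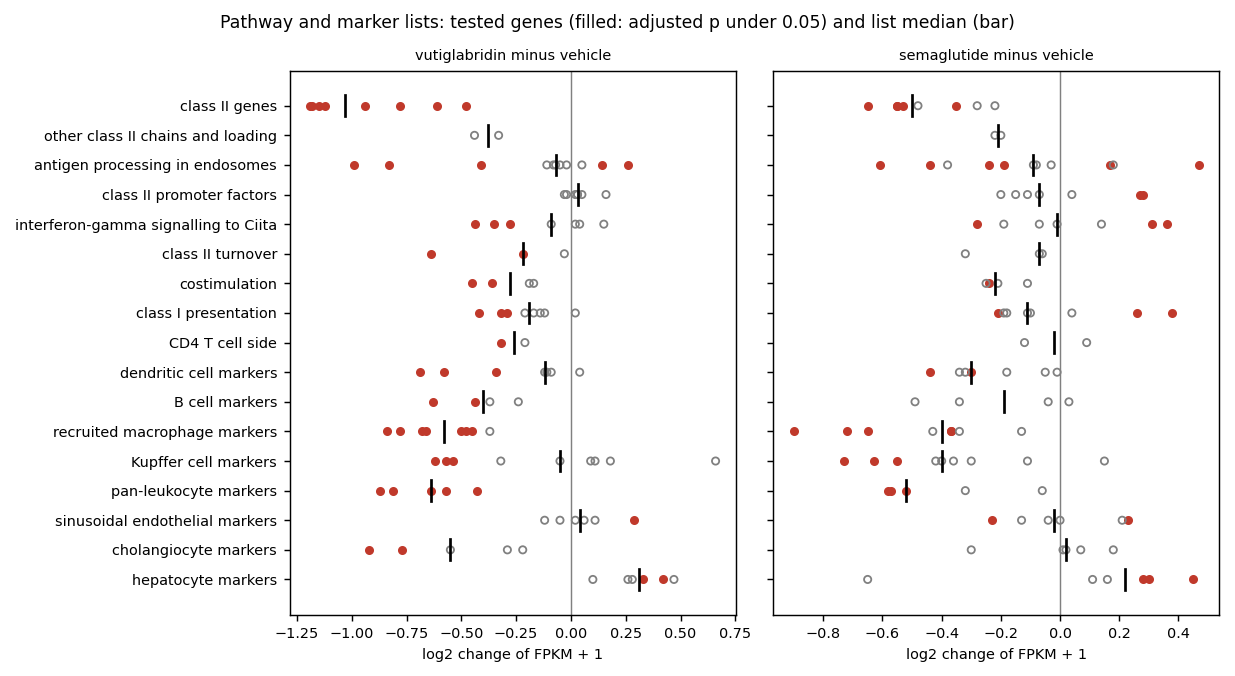
Change on the log2(FPKM + 1) scale (x axes) of the tested genes of each list, for vutiglabridin minus vehicle (left) and semaglutide minus vehicle (right). Filled points have an adjusted p under 0.05 and bars are list medians, with class II genes at -1.03 on the left and -0.50 on the right.

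Markers of cells that carry class II were called lower in part, most fully those of leukocytes in general and of recruited macrophages, and their part in the result was not tested. All 5 pan-leukocyte markers fell under vutiglabridin, with a median of -0.64, and summed to 21.7 to 41.1 FPKM in vutiglabridin, 28.8 to 42.5 in semaglutide and 36.0 to 71.5 in vehicle livers. Coro1a, an actin regulator of leukocytes, fell by 0.81 under vutiglabridin and by 0.57 under semaglutide (limma adjusted p = 0.00117 and 0.00909). Under semaglutide 3 of the 5 fell, and Ptprc, at -0.06, did not pass (limma adjusted p = 0.628). With the GC content and exon length trends removed, however, Ptprc was lower under semaglutide by 0.34 (limma adjusted p = 0.0109).

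Of the recruited macrophage markers, 7 of 8 tested fell under vutiglabridin (median -0.58) and 5 of 8 under semaglutide (median -0.40). Ccr2, the monocyte chemokine receptor, averaged 1.07 ± 0.409 FPKM in vutiglabridin, 1.84 ± 0.277 in semaglutide and 2.69 ± 0.509 in vehicle livers. It fell by 0.84 and 0.37 against vehicle (limma adjusted p = 2.42e-05 and 0.0105), and was 0.48 lower under vutiglabridin than under semaglutide (0.00161). Trem2, a receptor of lipid-associated macrophages, fell by 0.45 under vutiglabridin and by 0.72 under semaglutide (limma adjusted p = 0.0208 and 0.000247). The list summed to 121.1 to 229.5 FPKM in vutiglabridin, 132.1 to 262.8 in semaglutide and 214.1 to 435.4 in vehicle livers. Lyz2 was the largest part of these sums, with means of 124.3, 147.6 and 199.0 FPKM in the same order. It fell by 0.68 under vutiglabridin (limma adjusted p = 0.00799) and did not pass under semaglutide (-0.43, 0.066). Leaving out 1 library gave 4 to 7 lower genes under vutiglabridin, with 4 without vehicle replicate 7 or vutiglabridin replicate 2.

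Kupffer cells, the resident macrophages of the liver, are marked by 9 tested genes, of which 3 fell under each drug, with medians of -0.05 under vutiglabridin and -0.40 under semaglutide. The complement genes C1qa and C1qb fell by 0.57 and 0.62 under vutiglabridin (limma adjusted p = 0.0209 and 0.0145) and by 0.55 and 0.63 under semaglutide (0.0155 and 0.00712). Cd5l fell by 0.73 under semaglutide (limma adjusted p = 0.0265) and differed by -0.32 under vutiglabridin (0.426). Clec4f, the most specific of the list and named after its values were seen, averaged 32.5 ± 10.1 FPKM in vutiglabridin, 22.1 ± 6.52 in semaglutide and 30.7 ± 17.9 in vehicle livers and did not pass. Under vutiglabridin it differed by 0.18, Timd4 by 0.09, Vsig4 by 0.11, Marco by 0.66 and Folr2 by -0.05 (limma adjusted p 0.309 to 0.904). Under semaglutide the same genes differed by -0.36, -0.11, -0.4, 0.15 and -0.3 (limma adjusted p 0.284 to 0.835). Timd4, Vsig4, Marco and Folr2 were also named after their values were seen. The third call under vutiglabridin was Adgre1 (-0.54, limma adjusted p = 0.0291), lost in 6 of 16 fits that left out 1 library. The list summed to 146.1 to 364.8 FPKM in vutiglabridin, 145.3 to 274.6 in semaglutide and 228.8 to 645.8 in vehicle livers. By mean FPKM, C1qa, C1qb and Cd5l were the largest parts of these sums in each group. Without vehicle replicate 7 or vutiglabridin replicate 8, 1 of the 9 was lower under vutiglabridin.

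Dendritic cell markers had 3 of 7 tested genes lower under vutiglabridin (list median -0.12) and 2 of 7 under semaglutide (list median -0.3). Itgax (CD11c) fell by 0.69 and 0.44 and Irf8 by 0.34 and 0.30 (limma adjusted p = 0.00105, 0.0155, 0.0285 and 0.0356), and both Irf8 calls were lost without vehicle replicate 2, 3 or 7, among others. Ccr7 fell by 0.58 under vutiglabridin (limma adjusted p = 0.00684), while Clec9a, of conventional type 1 cells, differed by -0.11 (0.361). Zbtb46 (0.04), Batf3 (-0.09) and Cd209a (-0.12) did not pass under vutiglabridin either (limma adjusted p = 0.743, 0.754 and 0.628). The 12 markers summed to 6.32 to 12.9 FPKM in vutiglabridin, 8.02 to 12.4 in semaglutide and 9.5 to 17.7 in vehicle livers.

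B cell markers summed to 1.76 to 4.39 FPKM in vutiglabridin, 3.08 to 6.08 in semaglutide and 3.98 to 22.9 in vehicle livers, and the vehicle maximum was replicate 3. In that library Cd79b was at 7.08 FPKM, against 2.15 in the next vehicle library. Blnk, a B cell adaptor also used by macrophages, fell by 0.44 under vutiglabridin (limma adjusted p = 0.00581), and the Cd79b call (-0.63, 0.0423) was lost in 9 of 16 fits that left out 1 library, vehicle replicate 3 among them. Cholangiocyte markers had 2 of 5 genes lower under vutiglabridin (1 without vehicle replicate 3 or 7 or vutiglabridin replicate 1, and 4 with totals equalised), with Krt19 at 2.31 ± 1.24 FPKM in vutiglabridin, 4.38 ± 1.18 in semaglutide and 4.37 ± 1.52 in vehicle livers. Of 6 sinusoidal endothelial markers, Clec4g alone rose under vutiglabridin, by 0.29 (limma adjusted p = 0.0072), a call lost with totals equalised (0.14, 0.13), and it rose by 0.23 under semaglutide (0.016). Of 6 hepatocyte markers, 2 rose under vutiglabridin and 3 under semaglutide, with Serpina1a up by 0.42 and 0.30 (limma adjusted p = 0.000325 and 0.0025). The other call under vutiglabridin, Hnf4a, was lost with totals equalised (0.17, limma adjusted p = 0.141) and with quantile normalization (0.16, 0.224). The other calls under semaglutide, Alb and Apoa1, were lost with quantile normalization (0.00 and 0.17, limma adjusted p = 1.0 and 0.275), and that of Alb in 11 of 16 fits that left out 1 library.

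The genes outside the list whose group-centred log2 values most resembled the mean of Cd74, H2-Aa, H2-Ab1 and H2-Eb1 over 24 libraries were Coro1a (Pearson r = 0.908), Lsp1 (0.890), Vim (0.878), Adap1 (0.876), Rcn3 (0.870), Ms4a7 (0.869), Irf5 (0.864), Rftn1 (0.861), Cd52 (0.860) and Il2rb (0.859). These are descriptions over libraries that share depth and cell content. On the same measure the other class II genes reached 0.806 for H2-DMa, 0.804 for H2-DMb1, 0.686 for Ciita and 0.683 for Ctss. This order depended on vutiglabridin replicate 7, the shallowest library. Without it H2-DMa reached 0.891, above the 0.880 of Coro1a and the 0.869 of Cd52, and H2-DMb1 reached 0.858. For Rcn3 the r within a group of 8 was 0.990 in vutiglabridin, 0.827 in semaglutide and 0.329 in vehicle livers.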

How the data were processed

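RNA was extracted with a Qiagen RNeasy kit, made into Illumina TruSeq Stranded mRNA libraries and sequenced in pairs on an Illumina NovaSeq, per the labels' protocols. The authors deposited 1 FPKM value per gene and library. Per the submitters' processing notes, HISAT2 and StringTie were among the tools. Tool versions, the build and the use of strand were not given in the sources used here. All 14293 identifiers are in GENCODE M21 (GRCm38), from which coordinates and exon lengths were taken. Of the low values, all lay within 0.2 fragments of a whole number at the implied depths.

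Genes reaching 0.5 FPKM in 8 or more libraries were tested with limma 3.58.1 (R 4.3.3, mean trend) on log2(FPKM + 1), in 1 fit of 24 libraries, 2-sided, with Benjamini-Hochberg adjustment over all 11562 genes in each comparison and a threshold of 0.05. A fold on this scale understates the change of low genes. The fit was tested on simulated data with known changes. Those data took each gene's vehicle mean and spread for every group. The wider spread of the class II genes under vutiglabridin was thus not covered. Ratios of gene pairs were tested with exact permutation tests over 12870 splits, adjusted over 9 tests.

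The 8 genes and the 16 lists (114 of 117 listed genes in the table) were chosen with earlier results of these data known. Named were all genes of the other class II, promoter factor, interferon-gamma and turnover lists, the 4 with the lowest p of each other list, Ptprc, and the 10 genes most correlated with the chains and Cd74. Alternatives were other pseudocounts, filters, scalings, the 2 groups alone, the replicate block, a correction for GC content and exon length, and each library left out. The ratios without a pseudocount and the alternatives for list genes were added after seeing the data. Ifi30, Ifng and Tnfsf4 were not analysed here. Not every gene that the naming rule selects is reported here.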

Additional observations from a re-analysis of the deposited data

Results flagged for a closer look

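Among 261 groups of 8 values (84 named genes and 3 ratios in each drug or vehicle group), 17 had a library farther from the next than the 95% critical value of Dixon's test for 8 samples allows. Chance alone flags about 1 in 20 groups. No class II gene of the 8 was among them.

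Vehicle replicate 3 accounted for 5 of the 17, in B cell markers and scarce class II genes. It had 7.08 FPKM of Cd79b (next highest vehicle library 2.15), 4.68 of Cd79a (next 1.0), 3.65 of Cd22 (next 1.35), 1.63 of H2-Ob (next 0.71) and 0.81 of H2-Eb2 (next 0.3). Vehicle replicate 7 was highest for Ifngr2 at 11.86 FPKM (next 10.44) and for Clec9a at 2.02 (next 1.39), and vehicle replicate 8 for Lag3 at 1.54 (next 0.99).

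Semaglutide replicate 1 was the lowest of its group for the bile duct genes Spp1 at 85.7 FPKM (next 163.51), Krt19 at 1.97 (next 3.76) and Epcam at 2.09 (next 6.2), and the highest for Irf2 at 14.57 (next 11.43). Semaglutide replicate 8 was the lowest for the sinusoidal scavenger receptors Stab1 at 4.23 FPKM (next 5.61) and Stab2 at 5.16 (next 6.93). Semaglutide replicate 3 was highest for Rfxap at 5.68 FPKM (next 4.25), semaglutide replicate 5 lowest for Creb1 at 1.5 (next 1.83), and vutiglabridin replicate 4 highest for Irf1 at 20.46 (next 14.35).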

How the results depend on the processing

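No value of the 8 class II genes changed sign in any alternative. For vutiglabridin against vehicle all 207 gene and setting pairs kept their direction and call. For semaglutide against vehicle 184 of 207 did, with 20 calls lost and 3 gained, and for vutiglabridin against semaglutide 188 did, with 12 lost and 7 gained. The number of genes called was 8, 5 and 5 with the replicate number as a block, and 7 to 8, 4 to 6 and 4 to 6 over the alternatives that kept every library. The 7 came with the filter of a mean of at least 1 FPKM, under which Ciita was not tested, and not from a lost call. Leaving out 1 library gave 8 in every case for vutiglabridin against vehicle, 3 to 5 for semaglutide against vehicle and 4 to 7 for vutiglabridin against semaglutide. Of 8 same-numbered pairs, 6, 2 and 3 had correlated deviations over 0.1 in the 3 comparisons (median 0.153, -0.037 and -0.0394). Since not all did, and 2, 1 and 1 libraries correlated best with their own number, the numbers were not taken as pairs. The block ended the vutiglabridin calls against vehicle of Tap2, Ctsh and Cd79b (limma adjusted p = 0.0609, 0.0579 and 0.0502) and added that of H2-Oa (0.0352).

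The log2 ratio of Cd74 to Ptprc between vutiglabridin and semaglutide was -0.21 with a pseudocount of 0.1 (exact permutation p = 0.189, adjusted) and -0.15 with none (0.339). That of H2-Aa to H2-DMa between semaglutide and vehicle was -0.11, -0.15 and -0.10 with pseudocounts of 0.1, 0.5 and none (exact permutation p = 0.189, 0.05 and 0.245, adjusted), against -0.18 with 1. With 1 library left out, Cd74 to Ctss between vutiglabridin and vehicle ran from -0.41 to -0.25, and Cd74 to Ptprc between semaglutide and vehicle from -0.28 to -0.17, passing without semaglutide replicate 5 (exact permutation p = 0.0364, adjusted). The cause was not tested. In the shallowest library, vutiglabridin replicate 7, Ciita, H2-DMb1 and H2-DMa rested on about 23.9, 36.9 and 43.0 fragments.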
